A study of Mus musculus with 30 samples.

Results

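Left ovaries of mature mice that had drunk dextran sulfate sodium (DSS) before puberty held more RNA of 11 transcripts than left ovaries of untreated littermates. No transcript passed the same test in the lower direction. The calls did not hold in every fit. Without 3 DSS libraries rich in oviduct RNA all 11 were still higher, but limma called 0. It also called 0 with the oviduct level as a covariate. Leaving the 3 libraries out also leaves fewer DSS mice, and whether that or the oviduct RNA ended the calls was not tested. Limma called 5 with a replicate block and 6 to 21 on leaving out 1 library. Of the 11 transcripts, 9 share stretches of identical letters on the same strand, and 7 hold one and the same run of 21 bases. Of the 9, Gm38195 shares only 22 bases, with 1 other called transcript. From general knowledge, and with no repeat annotation used, the letters shared by the others resemble the coding sequence of LINE-1. LINE-1 is a mobile element present in many copies of the mouse genome. Transcripts of granulosa cells, oocytes, steroid synthesis and immune cells did not pass the test, and the medians of these lists moved towards 0 without the 3 libraries. With the oviduct covariate the granulosa, oocyte and steroid synthesis medians turned from lower to higher.

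The comparison is DSS against control in left ovaries only. It uses the libraries whose label ends in left, 15 of the 30 libraries of the series, 1 library for each mouse and no average with the right ovary. The mice were female C57BL/6, and 7 of them received 3% DSS in the drinking water for 7 days while sexually immature, whereas 8 littermates served as controls. All ovaries were taken after the mice had reached sexual maturity. RNA was measured by CEL-Seq, a method that reads short tags near the 3′ end of RNAs with a poly(A) tail, and a mixture of 3 CEL-Seq primers had been used for each library to reduce technical variability. Mice are named here by their group and the number in their label, as DSS_10.4. How the mice were divided over litters and cages is not given in the sources used here.

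DSS is a sulfated polysaccharide that injures the lining of the colon and causes acute colitis, from which mice recover when it is withdrawn. The ovary holds oocytes surrounded by granulosa cells, which make oestrogen from the androgens of theca cells, and corpora lutea, which make progesterone. LINE-1 elements copy themselves through an RNA intermediate. Their RNA encodes an RNA-binding protein and a larger protein with endonuclease and reverse transcriptase activity. Most copies are truncated and many lie inside the introns or exons of other genes, so a gene's annotated transcript can contain LINE-1 letters without any link to the gene's own product. Germ cells hold these elements in check by DNA methylation and by small RNAs.

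The shared run of 21 bases is shown first because it links most of the called transcripts. It was found by comparing the 11 transcripts with each other, after their values were known. The 5 lines below give it in capitals within the sequence around it, in the 5 called transcripts that are annotated as noncoding and hold it, read 5′ to 3′ in the direction of transcription (GENCODE M21 on GRCm38).
RP23-167J19.2: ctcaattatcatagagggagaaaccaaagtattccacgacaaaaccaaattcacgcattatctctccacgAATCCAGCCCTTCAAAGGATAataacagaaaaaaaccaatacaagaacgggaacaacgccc
A430073D23Rik: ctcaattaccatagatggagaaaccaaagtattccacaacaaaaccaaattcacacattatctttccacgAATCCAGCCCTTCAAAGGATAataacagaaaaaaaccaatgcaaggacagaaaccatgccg
Gm29055: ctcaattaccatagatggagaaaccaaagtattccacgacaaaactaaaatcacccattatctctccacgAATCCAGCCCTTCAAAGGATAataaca
Gm37158: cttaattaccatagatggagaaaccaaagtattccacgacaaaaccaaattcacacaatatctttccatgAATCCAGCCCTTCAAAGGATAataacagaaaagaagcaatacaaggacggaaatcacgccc
Gm37746: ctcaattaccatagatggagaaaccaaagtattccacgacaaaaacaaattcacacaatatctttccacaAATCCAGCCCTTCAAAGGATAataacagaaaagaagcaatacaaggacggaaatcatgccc

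The windows lie at chr10:103212142-103212272 on the minus strand for RP23-167J19.2, at chr5:109769753-109769883 on the minus strand for A430073D23Rik and at chr1:86776432-86776528 on the plus strand for Gm29055, where the transcript ends. Those of Gm37158 and Gm37746 lie at chrY:16695724-16695854 on the minus strand and at chr3:43955726-43955856 on the plus strand. The same run also occurs in Vmn2r55, within a coding exon, and in 9930111J21Rik2, within an untranslated region, on the strand of each gene. Among the 14726 tested genes with a GENCODE M21 transcript, 9 (0.0611%) hold the run on their own strand and 1 holds it on the other strand. The run starts at base 1236 of 5690 in RP23-167J19.2, 1250 of 5704 in Gm37158 and 4478 of 5985 in 9930111J21Rik2. In Vmn2r55 it starts at base 1343 of 2448 and in A430073D23Rik at 259 of 665. In Gm37746 it starts at base 76 of 198 and in Gm29055 at 1684 of 1710. CEL-Seq reads tags near the 3′ end, so the counted tags need not come from the run, and this was not tested. A match of letters is a description and does not say which genomic copy a read came from.

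The transcripts differ in how much of their length is shared. Of the 5690 bases of RP23-167J19.2, 80.2% lie in runs of 20 or more bases that at least 1 other called transcript holds on the same strand, and its longest open reading frames have 1281 and 371 codons. Gm37158 shares 77.3% of 5704 bases, with frames of 846 and 367 codons. The shared part made up 97.5% of the 198 bases of Gm37746, 67.7% of A430073D23Rik, 59.1% of Gm29055 and 43.2% of Gm37954. In 9930111J21Rik2 it was 21.1% of 5985 bases, and in Vmn2r55 1.9% and in Gm38195 1.5%, or 46 and 22 bases. Gm38195 shared its bases with only 1 other called transcript, whereas the others that share did so with 7 or 8. Cmah and Cntrl shared no such run on their own strand. No repeat annotation was used, and reads from near-identical copies may have been placed at any of these loci or dropped, so the level of each single transcript in the group is uncertain while the letters they share are not.

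RP23-167J19.2 (ENSMUSG00000112622.1), of the annotation class TEC, transcripts that await experimental evidence, lies inside Lrriq1 on the same strand at chr10:103207748-103213437. It was measured at 5113 normalized counts in the left ovary of DSS_10.4, 3952 in DSS_10.3, 5371 in DSS_11.2, 5435 in DSS_11.1, 5419 in DSS_13.2, 2836 in DSS_15.1 and 5171 in DSS_16.3. The 8 control left ovaries lay between 1845 and 2583 with a median of 2350. Every DSS library was above every control library, and DSS_15.1 was the lowest of the 7. The means were 4757 ± 993 (SD, n = 7) and 2306 ± 269 (SD, n = 8), a difference of 1.02 on the log2(value + 1) scale (SE 0.13, 95% interval 0.76 to 1.28, limma adjusted p = 0.00212). Its host Lrriq1 was below the minimum mean of 5 normalized counts that a gene needed to be tested. Lrriq1 was at 5.95 ± 9.5 in DSS (SD, n = 7) and 0.549 ± 0.866 in control left ovaries (SD, n = 8). Limma called 11 of 14741 genes higher (0.0746%) and 0 lower (0%) at an adjusted p under 0.05, and at an unadjusted p under 0.05 the shares were 5.9% higher, 869 genes, and 3.9% lower, 575 genes.

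**Figure D1:**
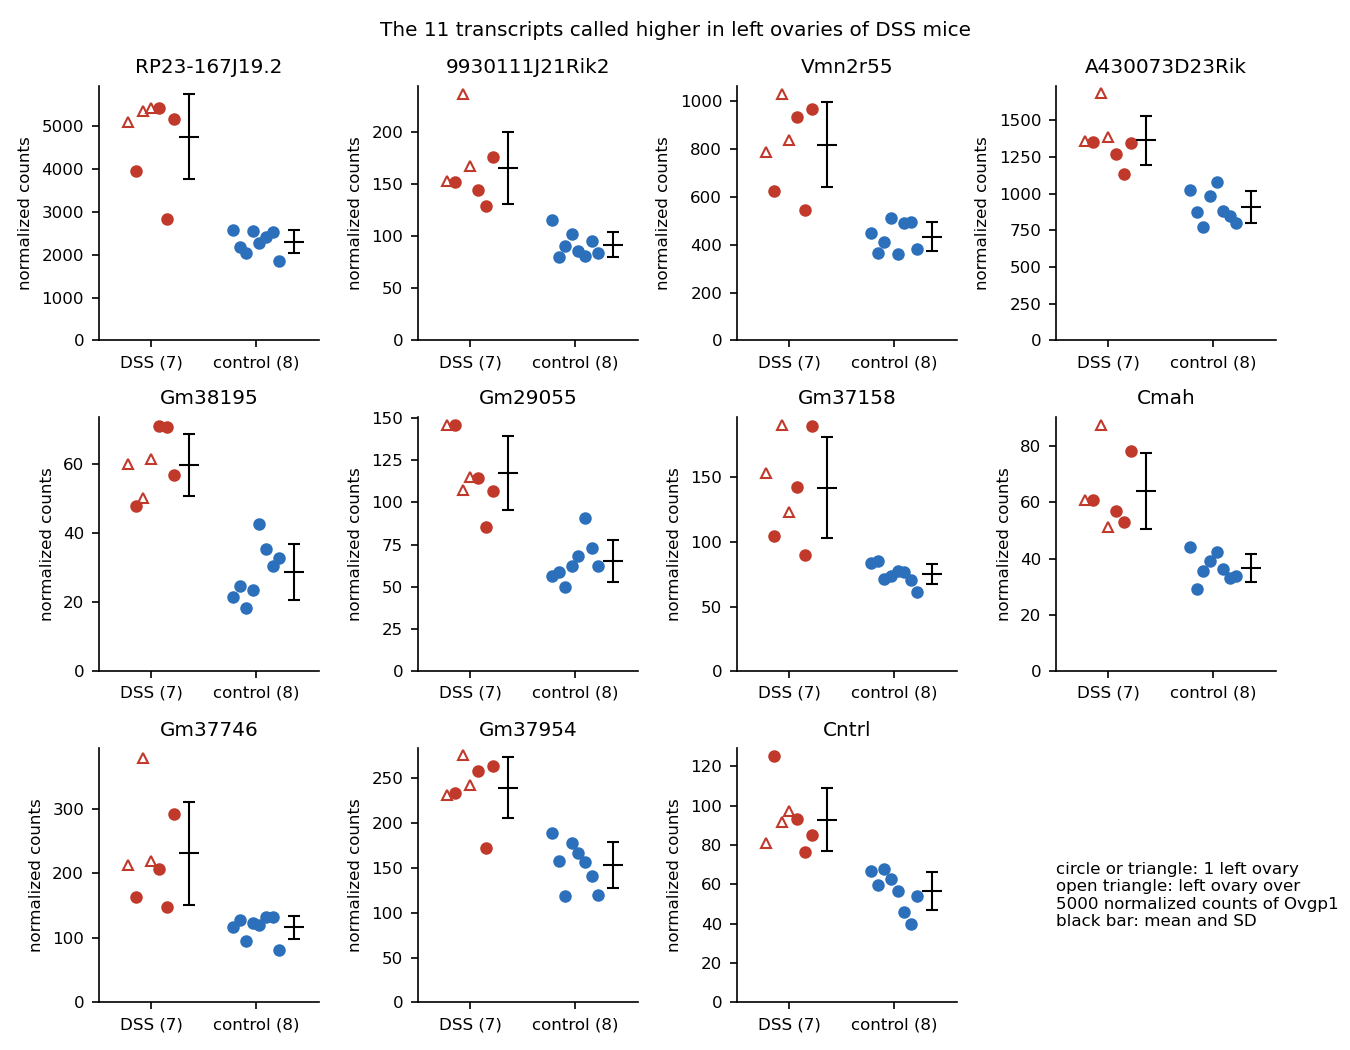
Normalized counts (y axis, from 0) of the 11 called transcripts in each of the 15 left ovaries, DSS in red and control in blue, with the mean and SD in black and the 3 libraries over 5000 normalized counts of Ovgp1 as open triangles. In 9 panels every DSS point lies above every control point, and in Gm29055 and Gm37954 the library of DSS_15.1 falls within the control range.

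9930111J21Rik2, a predicted member of the interferon-inducible GTPases, which act in defence of cells against pathogens, ran from 129 to 237 in DSS left ovaries (median 153) and from 80.5 to 115 in controls (median 88.2). The groups did not overlap. The difference was 0.83 on the log2 scale (SE 0.12, limma adjusted p = 0.00552). It lies at chr11:49015574-49051242 on the minus strand, with Olfr56 on the other strand, and its related gene 9930111J21Rik1 was below the minimum mean. The strand setting of the counting is not given in the sources used here, so reads from either strand may be included.

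Vmn2r55, by its name a vomeronasal receptor of chromosome 7 (chr7:12651406-12684991), was between 546 and 1029 in DSS left ovaries (median 836) and between 362 and 513 in controls (median 429), again without overlap (log2 difference 0.90, SE 0.13, limma adjusted p = 0.00552). A430073D23Rik, a long intergenic noncoding RNA of chromosome 5, ran from 1132 to 1688 against 770 to 1078, with medians of 1355 and 877. Its log2 difference was 0.59 (SE 0.09, limma adjusted p = 0.00757). After RP23-167J19.2 these were the most abundant of the 11. The receptor family of Vmn2r55 serves pheromone detection in the nose, and the letters it shares with the other called transcripts cover 46 bases.

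Gm38195 and Gm37746 are TEC transcripts of chromosome 3. Gm38195 was between 47.8 and 70.8 in DSS left ovaries (median 59.9) and between 18.3 and 42.4 in controls (median 27.6), a log2 difference of 1.07 (SE 0.17, limma adjusted p = 0.0115). Gm37746 ran from 148 to 380 (median 213) against 81.4 to 133 (median 122), a log2 difference of 0.94 (SE 0.17, adjusted p = 0.0352). Neither overlapped between groups. Gm37158, a TEC transcript assigned to chromosome Y, was counted at 90.1 to 190 in DSS left ovaries (median 142) and 61.1 to 85.2 in controls (median 75.2), with a log2 difference of 0.87 (SE 0.14, adjusted p = 0.0197). The mice are female, so these reads are assigned to a chromosome that the animals lack. Of 1570 genes of chromosome Y in the table, 3 were tested, and Gm37158 was the 1 that was called.

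Gm29055, annotated as intronic in the sense direction of Dis3l2 on chromosome 1, lay between 85.2 and 146 in DSS left ovaries (median 115) and between 50.2 and 90.7 in controls (median 62.4). The groups overlapped by 1 library on each side, DSS_15.1 and control_15.4. Its log2 difference was 0.83 (SE 0.13, limma adjusted p = 0.0125), whereas Dis3l2 itself was at 76.0 ± 11.3 and 75.4 ± 8.77, a log2 difference of 0.005 (SE 0.11). Gm37954, a TEC transcript inside Srgap2 on chromosome 1, ran from 172 to 276 (median 243) against 119 to 189 (median 157), a log2 difference of 0.65 (SE 0.12, adjusted p = 0.0372). Srgap2 was at 70.7 ± 13.7 and 66.0 ± 7.11 (log2 difference 0.09, SE 0.12, adjusted p = 0.851). DSS_15.1 lay below 2 of the controls for Gm37954. In both places the transcript inside the gene passed the test and the gene around it did not.

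The remaining 2 called genes carry none of the shared runs on their own strand. Read on the opposite strand, Cmah shares such a run with 1 other called transcript and Cntrl with 0. Cmah, the enzyme that turns the sialic acid Neu5Ac into Neu5Gc, was between 51.1 and 87.4 in DSS left ovaries (median 60.8) and between 29.3 and 44.2 in controls (median 36.1). The groups did not overlap, and the log2 difference was 0.77 (SE 0.13, limma adjusted p = 0.0271). It overlaps Gm11342 and Gm11344 on the other strand. Cntrl, which encodes the centrosome protein centriolin, ran from 76.4 to 125 (median 91.7) against 39.8 to 67.5 (median 58.1), also without overlap (log2 difference 0.70, SE 0.13, adjusted p = 0.0415). Of the 11, Cntrl was the closest to the threshold. Of 30 alternatives, 22 ended the call of Cntrl and 14 that of Cmah, the replicate block among both (limma adjusted p = 0.0739 for Cntrl and 0.174 for Cmah). On leaving out each of the 15 libraries in turn, Cntrl kept its call only without DSS_15.1 or control_10.5, and its log2 difference stayed between 0.59 and 0.75 over all 30.

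The letters that at least 2 called transcripts share were then looked for in all other tested genes. At least 10 different runs of 20 shared bases on the gene's own strand were found in 89 genes that were not called. These runs may overlap, so a single unbroken stretch of shared bases can supply all 10. Of these, 78 (87.6%) were higher in DSS left ovaries, 34 (38.2%) had an unadjusted p under 0.05, and their median log2 difference was 0.39. In 58 genes at least 10 such runs lie on the other strand and fewer than 10 on the gene's own. Of these 58, 34 (58.6%) were higher, 4 (6.9%) had an unadjusted p under 0.05 and the median was 0.11. In the 14506 genes with none on either strand, 49.9% were higher, 9.56% had an unadjusted p under 0.05 and the median was 0. Genes with some such runs, but fewer than 10 on each strand, are in none of these groups. Since the letters were taken from genes called in this same comparison, and reads of near-identical copies are not independent, these counts are a description and carry no test.

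The 4 uncalled holders with the smallest p, named after their values were seen, came close to the threshold. Gm37900, a TEC transcript, was at 205 ± 94.2 (SD, n = 7) in DSS and 94.0 ± 12.5 (SD, n = 8) in control left ovaries, a log2 difference of 1.02 (SE 0.19, limma adjusted p = 0.0574). Gm42669 was at 121 ± 37.3 and 58.7 ± 18.7 (log2 difference 1.04, adjusted p = 0.0611), Olfr1336, an olfactory receptor gene, had a difference of 0.82 (SE 0.16, limma adjusted p = 0.0773), and Gm45518 was at 231 ± 61.3 and 126 ± 31.1 (0.86, adjusted p = 0.106). Within classes, the holders among protein-coding genes had a median of 0.34 (46 genes) against -0.01 in the 12993 without such runs. For these 46 the median was 0.14 without the 3 libraries rich in Ovgp1 and 0.09 in right ovaries. Among lincRNAs the medians were 0.65 (10 genes) and 0.06 (356 genes), and among TEC transcripts 0.42 (16 genes) and 0.20 (505 genes).

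Summed over the 9 called transcripts that share letters, the left ovaries of DSS mice held 5209 to 9328 normalized counts (median 8560) and those of controls 3466 to 4639 (median 4321). Summed over the 89 uncalled holders, the DSS left ovaries held 8432 to 10623 (median 9417) and the controls 7562 to 8406 (median 7981). DSS_15.1 was lowest among DSS mice in both sums and still above every control left ovary. The same mouse had the lowest sum of ribosomal RNA tags among DSS left ovaries, 106019 against 155999 to 269403 in the other 6, and controls ran from 88396 to 201583. Most of that sum is mitochondrial ribosomal RNA, with mt-Rnr2 and mt-Rnr1 at means of 139000 and 23400 over the left libraries, and Gm42418 at 10200. The part of this sum in the difference was not tested.

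**Figure D2:**
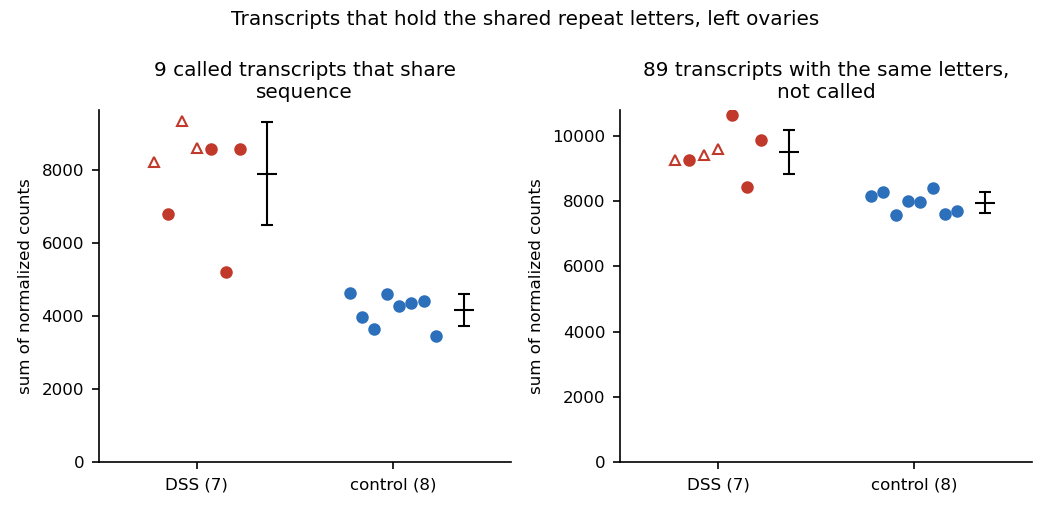
Sum of normalized counts (y axis, from 0) over the 9 called transcripts that share letters and over the 89 uncalled transcripts that hold the same letters, for each of the 15 left ovaries, with mean and SD in black and the 3 Ovgp1-rich libraries as open triangles. In both panels the lowest DSS library, 5209 and 8432, lies above the highest control library, 4639 and 8406.

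Transcript classes differed in the share of higher genes, given here as a description without a test. Of 546 TEC transcripts tested, 74.2% were higher in DSS left ovaries, with a median log2 difference of 0.22, 78 higher and 4 lower at an unadjusted p under 0.05, and 5 called. Of 66 sense-intronic transcripts 75.8% were higher (median 0.26, 1 called), and of 381 lincRNAs 59.3% (median 0.07, 1 called). Of 239 antisense transcripts 61.1% were higher (median 0.09), and of 53 processed pseudogenes 52.8% (median 0.04, 1 higher and 4 lower at an unadjusted p under 0.05). In right ovaries the shares were 68.7% for TEC, 60.0% for sense-intronic, 58.4% for lincRNA, 49.1% for antisense and 56.5% for processed pseudogenes. Of 13126 protein-coding genes 48.3% were higher, the median was -0.01 and 4 were called. Intronic and unannotated transcripts can come from unspliced RNA or genomic DNA as well as from stable transcripts, and whether their share of the libraries bears on the called group was not tested.

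In 3 DSS left ovaries the library held a large amount of oviduct RNA. Ovgp1, the glycoprotein that oviduct cells secrete, was at 25161 normalized counts in DSS_10.4, 66716 in DSS_11.2 and 9953 in DSS_11.1, at 1630 in DSS_10.3, and at 325, 504 and 429 in DSS_13.2, DSS_15.1 and DSS_16.3. Controls ran from 120 to 469. Foxj1, the regulator of motile cilia, was between 2.11 and 149 in DSS left ovaries and at most 1.33 in controls. The sum of the 16 listed oviduct genes was 646 to 70020 in DSS (646 to 2040 without those 3 libraries) and 406 to 858 in controls. The 3 libraries also stood apart on the first principal component, which took 35% of the variance, at -55.25, -108.14 and -31.71 where the other 12 lay between 1.45 and 23.29.

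Other tissues differed between libraries too. Adipoq, the hormone of fat cells, was at 1874 in DSS_11.2 and 646 in DSS_10.4, between 22.7 and 120 in the other 5 DSS left ovaries, and between 14.6 and 564 in controls. Krt5, a keratin of stratified epithelium, was between 23.5 and 89.8 in 6 DSS left ovaries and at 804 in DSS_16.3, and between 36.9 and 1121 in controls (log2 difference -1.94, SE 0.77, limma adjusted p = 0.458). The groups overlapped for both genes. Smooth muscle genes summed to 4620 to 29143 in DSS (4620 to 6204 without the 3 libraries) and to 4299 to 5684 in controls. Ovarian markers were present in all 15 libraries, with Amh between 1007 and 2603 normalized counts. In bulk tissue, fewer cells of a type and less RNA of each cell cannot be told apart.

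**Figure D3:**
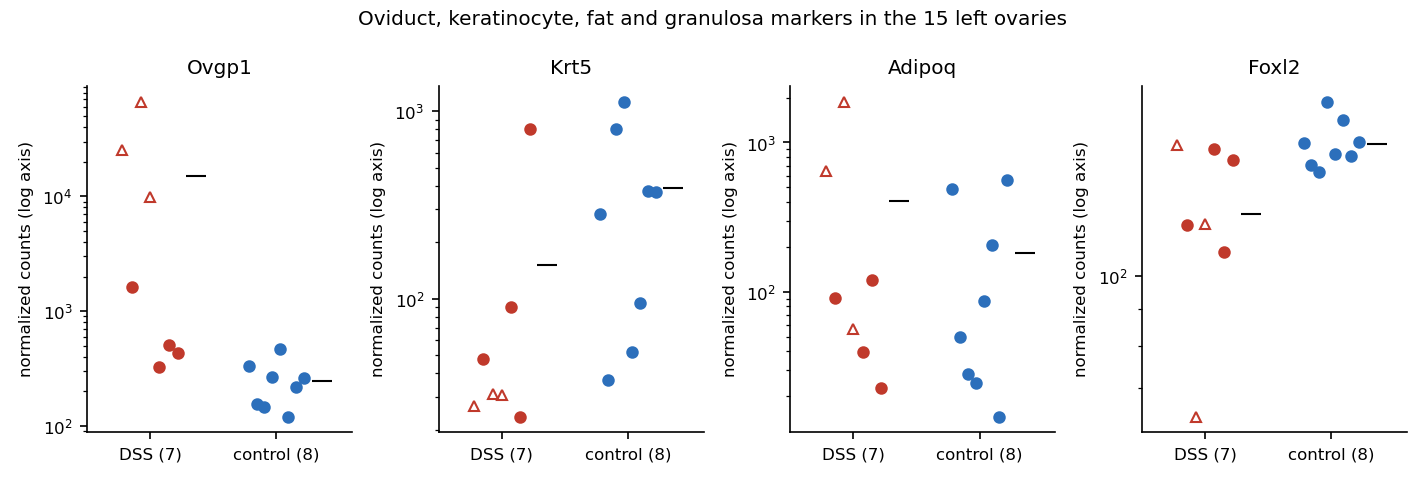
Normalized counts (log axis) of Ovgp1 (oviduct), Krt5 (keratinocytes), Adipoq (fat) and Foxl2 (granulosa cells) in each of the 15 left ovaries, DSS in red and control in blue, with the mean as a black bar and the 3 libraries over 5000 normalized counts of Ovgp1 as open triangles. DSS_11.2 has the highest Ovgp1 (66716) and Adipoq (1874) and the lowest Foxl2 (64.0).

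Without these 3 libraries, 4 DSS left ovaries were compared with 8 controls. The log2 differences of the 11 called transcripts then ran from 0.50 to 1.10, against 0.59 to 1.07 with all 15 libraries, and all 11 were still higher. With limma none passed, at adjusted p from 0.0628 to 0.409, and 0 of 14468 genes were called (612 at an unadjusted p under 0.05). This fit holds fewer DSS mice, and whether that or the oviduct RNA ended the calls was not tested. Leaving out only 1 of the 3 gave 9 calls for DSS_11.2, 8 for DSS_11.1 and 6 for DSS_10.4. For the other DSS libraries it gave 8 (DSS_10.3), 6 (DSS_13.2), 21 (DSS_15.1) and 6 (DSS_16.3). With the oviduct level of each library as a covariate the 11 differences ran from 0.42 to 1.15 and 0 genes were called (758 unadjusted, adjusted p of the 11 from 0.216 to 0.788). The 89 uncalled holders had a median of 0.31 without the 3 libraries, and of 0.13 in right ovaries. In the full set of 15 libraries, edgeR and DESeq2 on the recovered reads called all 11.

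The right ovaries of the same mice were used for comparison. There the 11 log2 differences ran from 0.12 to 0.46, all towards higher in DSS, and none passed (limma adjusted p from 0.507 to 0.939). RP23-167J19.2 was at 4518 ± 1956 in DSS right ovaries (SD, n = 7) and 3280 ± 979 in control right ovaries (SD, n = 8), and Cmah at 52.0 ± 7.19 and 47.8 ± 11.3. The sum over the 9 transcripts that share letters ran from 4094 to 11684 in DSS right ovaries and from 3722 to 8123 in control right ovaries, which overlap. Control left ovaries ran from 3466 to 4639, so 6 of 8 control right ovaries were above all of them.

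The left minus right difference of each mouse was compared between DSS and control mice, which tests whether the DSS effect differed between sides. With limma 0 of 14646 genes passed (0%), and 1098 had an unadjusted p under 0.05. For the 11 called transcripts the difference between sides was 0.37 to 0.86 on the log2 scale, larger on the left in all 11, with unadjusted p from 0.00199 to 0.0584 and adjusted p from 0.637 to 0.656. A separate effect of the side is therefore not shown for any of them. The smallest p belonged to Gm43028, which was between 0 and 6.86 in DSS left ovaries and between 0 and 32.6 in controls (log2 difference -1.64 on the left and 2.09 on the right, side difference -3.74, adjusted p = 0.205). The other genes the rule names were Slc28a1 (side difference -1.60) and Utp15 (-0.50) on the lower side and Zswim3 (0.90), Gm26670 (1.14) and Zfp119b (1.13) on the higher side, with adjusted p from 0.205 to 0.423.

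**Figure D4:**
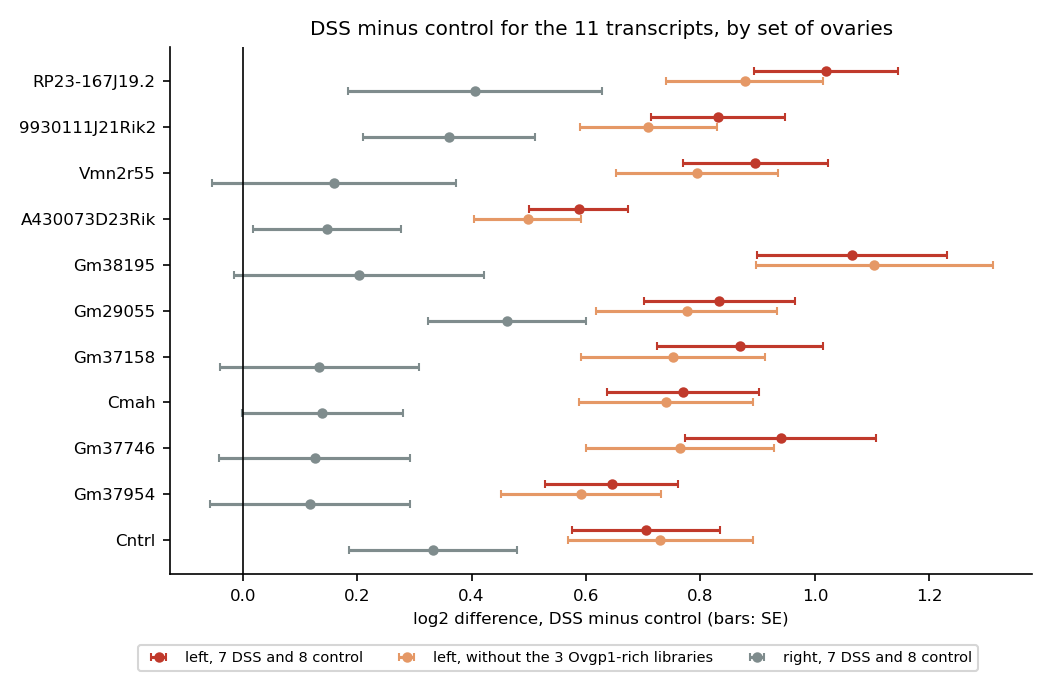
Difference in log2(value + 1), DSS minus control, with its SE (x axis) for the 11 called transcripts in left ovaries, in left ovaries without the 3 Ovgp1-rich libraries, and in right ovaries. Left values run from 0.59 to 1.07 with all libraries and from 0.50 to 1.10 without the 3, and right values from 0.12 to 0.46.

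In the lower direction limma called 0 of 14741 genes and edgeR 0, whereas DESeq2 called 20. Limma without any filter on low values called 1, Treml4. The 8 lower genes with the smallest p had adjusted p from 0.197 to 0.216 and were below the control median in all 7 DSS left ovaries. Pcdh18, a protocadherin, an adhesion molecule of the cell surface, had the tightest values, 167 to 179 in DSS (median 173) and 191 to 217 in controls (median 213). The groups did not overlap, and the log2 difference was -0.27 (SE 0.06, limma adjusted p = 0.197). Spock2, an extracellular proteoglycan, was at 219 ± 39.0 and 295 ± 31.9 (log2 difference -0.44), and S1pr2, a receptor for sphingosine 1-phosphate, at 32.6 ± 3.04 and 47.4 ± 7.21 (-0.52). Cnih2, an auxiliary protein of glutamate receptors, had a difference of -0.58, Mgat4b, an enzyme that branches N-glycans, of -0.50, and the noncoding C230038L03Rik of -1.10.

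Tfam, which packages and transcribes mitochondrial DNA, was between 45.6 and 61.3 in DSS left ovaries (median 51.2) and between 57.5 and 76.6 in controls (median 70.6). The groups overlapped, and the log2 difference was -0.40 (SE 0.10, limma adjusted p = 0.216). Srd5a1, the enzyme that reduces testosterone and progesterone at the 5-alpha position, was between 204 and 310 (median 267) in DSS and between 278 and 472 (median 383) in controls. Its highest DSS value, DSS_13.2, lay above the 3 lowest controls. The log2 difference was -0.46 (SE 0.12, adjusted p = 0.216 over all genes with limma), and for this gene alone a two-sided exact permutation over all 6435 splits gave p = 0.00404. Srd5a1 was chosen with earlier results of these data known. Without the 3 Ovgp1-rich libraries its difference was -0.32, and in right ovaries -0.23.

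All 7 DSS left ovaries were above all 8 controls for 19 genes (0.129%) and below all 8 for 3 (0.0204%). The 3 were Pcdh18, Ddb1, a subunit of a ubiquitin ligase that acts in DNA repair, and Tmem55a, a phosphoinositide phosphatase. Ddb1 was at 143 ± 8.75 and 171 ± 11.5 (log2 difference -0.25, limma adjusted p = 0.275) and Tmem55a at 65.6 ± 4.78 and 84.7 ± 11.9 (-0.35, adjusted p = 0.275). Ddb1 and Tmem55a were named after their values were seen. Of the 19 genes above, 9 were among the 11 called.

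None of the genes with the widest differences on the log2 scale passed. Of the 10, Ovgp1 and Foxj1 are in the oviduct list and Krt6a and Krt14 in the stratified epithelium list, and the other 6 are in no list. Spag17, a protein of motile cilia, ran from 1.06 to 242 in DSS left ovaries (median 9.78) and from 0 to 9.01 in controls (log2 difference 3.90, adjusted p = 0.197). Ovgp1 (3.71), A2ml1, a protease inhibitor (3.51), Gm45396 (3.395) and Foxj1 (3.36) followed, with adjusted p from 0.195 to 0.217. On the lower side were the keratins Krt6a (-3.13), Krt6b (-2.67) and Krt14 (-2.67), with 2310057J18Rik (-2.73) and Gm7714 (-2.52), at adjusted p from 0.36 to 0.48. The fitted differences of genes near 0 depend on the added 1 and are no fold changes.

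In total 37 gene lists were described by counts, and the median log2 difference of all 14741 genes was 0.001, with 7409 higher and 7332 lower. The shares to read each list against are those of all genes, 5.9% higher and 3.9% lower at an unadjusted p under 0.05 and 0.0746% called. 9930111J21Rik2 was the 1 list member that passed. Of 20 granulosa cell genes all 20 were lower in DSS left ovaries, 10 of them at an unadjusted p under 0.05 (3.9% of all genes were), with a median of -0.32 and none past adjustment. Amhr2, the receptor of anti-Müllerian hormone, was at 90.3 ± 20.5 and 118 ± 21.7 (log2 difference -0.40, limma adjusted p = 0.424), and Inhbb, a subunit of activin and inhibin B, at 2819 ± 751 and 3954 ± 1200.3 (-0.47, adjusted p = 0.454). Foxl2, which maintains granulosa identity, ran from 64.0 to 151 in DSS and 139 to 173 in controls, and the groups overlapped (-0.36, adjusted p = 0.456). Without the 3 Ovgp1-rich libraries 14 of 21 granulosa genes were lower and the median was -0.08, and with the oviduct covariate 14 of 20 were higher and the median was 0.08. The granulosa sum was 12829 to 29942 in DSS left ovaries, 23354 to 29942 without those 3, and 20586 to 32774 in controls.

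Of 26 oocyte genes 25 were lower, 4 of them at an unadjusted p under 0.05, against 3.9% of all genes (median -0.24). Gdf9, a growth factor by which the oocyte directs granulosa cells, was at 240 ± 72.3 and 321.5 ± 48.1 (log2 difference -0.47, limma adjusted p = 0.402), and Tcl1 at 103 ± 31.2 and 131 ± 25.5 (-0.37). Without the 3 libraries 13 of 26 were lower and the median was 0, and with the oviduct covariate 22 of 26 were higher (median 0.15). All 24 cell cycle genes were lower (median -0.25, 3 at an unadjusted p under 0.05), among them E2f1 (-0.66, adjusted p = 0.392) and Ccne2 (-0.60, adjusted p = 0.392), and without the 3 libraries 14 of 24 were (median -0.02). With the oviduct covariate 17 of 24 cell cycle genes were higher (median 0.09). In right ovaries the medians of the granulosa, oocyte and cell cycle lists were 0.18, 0.10 and 0.04. None of the genes of these 3 lists passed the test of the difference between sides.

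Of 20 steroidogenesis genes 16 were lower (median -0.21, 3 at an unadjusted p under 0.05). Cyp19a1, the aromatase, was between 6.40 and 75.0 in DSS left ovaries (median 49.9) and between 34.5 and 135 in controls (median 68.4), with overlap (log2 difference -0.88, SE 0.42, adjusted p = 0.506). Hsd17b1, which activates oestrogen, was at 55.7 ± 17.8 and 76.9 ± 18.8 (-0.48). Star, which brings cholesterol into mitochondria, had a difference of -0.15 (SE 0.29), Cyp17a1, the androgen-forming enzyme of theca cells, of 0.12 (SE 0.70), and Lhcgr, the receptor of luteinizing hormone, of -0.04 (SE 0.53). For Cyp17a1 and Lhcgr 1 library of each group lay far below the rest, DSS_11.2 and control_15.3. Without the 3 Ovgp1-rich libraries 10 of 21 steroidogenesis genes were higher, and the median was 0. With the oviduct covariate 13 of 20 were higher (median 0.19). Amh, the hormone of growing follicles, had a difference of -0.25 (SE 0.20, adjusted p = 0.698) and Fshr, the receptor of follicle-stimulating hormone, of -0.56 (SE 0.26, adjusted p = 0.493). In cholesterol synthesis 14 of 22 genes were lower (median -0.06), with Scap, which escorts the sterol regulator to its activation, at -0.38 and Srebf2, that regulator, at -0.25. Without the 3 Ovgp1-rich libraries 11 of 22 cholesterol synthesis genes were lower (median 0.002). With the oviduct covariate 16 of 22 were higher (median 0.19).

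Among interferon-inducible GTPases 12 of 13 tested genes were higher (median 0.18), 4 at an unadjusted p under 0.05 and 1 called, where the shares of all genes were 5.9% and 0.0746%. The called member, which is also 1 of the 4, is 9930111J21Rik2. It holds the shared letters over 21.1% of its transcript, so its level is uncertain, as stated above. Iigp1 was at 89.6 ± 21.2 and 53.8 ± 19.4 (log2 difference 0.77, SE 0.20, adjusted p = 0.217) and Gbp4 at 120 ± 66.3 and 68.1 ± 17.3 (0.72, adjusted p = 0.307), while Gbp8, at 1.252, had an adjusted p of 0.401. Without the 3 libraries 9 of 13 were higher with a median of 0.18, and with the oviduct covariate 7 of 13 with a median of 0.10. Of 25 other interferon-response genes 20 were higher and 0 passed, at a median of 0.08 with and -0.04 without the 3 libraries, among them Rtp4 (0.29) and Ifit2 (0.38).

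Immune cell lists were mostly higher and none of their genes passed. B and plasma cell genes had a median of 0.80 (8 of 9 higher, 3 at an unadjusted p under 0.05), with Igha, the heavy chain of secreted IgA, at 115 ± 160 and 27.4 ± 14.7 (log2 difference 1.37, adjusted p = 0.448) and Igkc at 149 ± 217 and 36.7 ± 14.7 (1.27, adjusted p = 0.454). Their sum was 1755 in DSS_11.2 and 452 in DSS_10.4, 125 to 215 in the other 5 and 58.4 to 186 in controls. Macrophage genes had a median of 0.21 (12 of 16 higher), with Itgam at 0.56 and Cx3cr1 at 0.37. T and NK cell genes had a median of 0.27 (7 of 8, Trac 0.81 and Cd4 0.48), and MHC class II genes 0.26 (8 of 8, Ciita, the master regulator of that class, 0.67 and H2-Ob 0.81). Without the 3 libraries these 4 medians were 0.22, 0, 0.17 and 0.09, and with the oviduct covariate -0.07, -0.07, 0.12 and -0.11. Of 15 genes for inflammatory cytokines and NF-kB signalling 8 were higher and 7 lower (median 0.004), with Tgfb1 at -0.28 and the acute phase gene Saa3 at 0.33.

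Lists of ribosomal, respiratory chain, follicle reserve and chromatin genes lay within 0.1 of the median of all genes. Cytosolic ribosomal protein genes had a median of -0.06 (73 of 78 lower, Rplp2 -0.26), nuclear genes of the respiratory chain -0.04 (34 of 45 lower, Uqcrc1 -0.21), and regulators of the primordial follicle reserve -0.04 (13 of 19 lower, Tsc2 -0.25). Without the 3 Ovgp1-rich libraries 49 of 78, 29 of 45 and 12 of 19 genes of these lists were lower. With the oviduct covariate 54 of 78 ribosomal (median 0.025), 27 of 45 respiratory chain (0.007) and 9 of 19 reserve genes (-0.011) were higher. DNA methylation and histone modifier genes, which include regulators that hold transposons in check, had a median of 0.03 (13 of 23 higher), with the demethylation enzyme Tet2 at 0.25 (adjusted p = 0.457) and the histone demethylase Kdm1a at 0.42 (adjusted p = 0.47). The mitochondrial ribosomal RNAs mt-Rnr2 and mt-Rnr1 had differences of 0.49 and 0.56, both at an adjusted p of 0.47. Lists of other tissues lay further away. Stratified epithelium genes were lower in 18 of 18 (median -1.50, and -1.08 without the 3 libraries), including Ly6d at -1.82, and none passed. Oviduct genes were higher in 14 of 14 (median 2.26, Capsl 2.96). Adipocyte genes were higher in 11 of 11 (median 0.45, Plin4 0.45 and Lpl 0.36) and, without the 3 libraries, lower in 9 of 11 (median -0.59). Smooth muscle and pericyte genes were higher in 10 of 12 (median 0.48, Myh11 0.96 and Tagln 0.69) and in 6 of 12 without those libraries.

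No member passed in the other 16 lists. Hormone and growth factor receptors (median 0.003), extracellular matrix genes (0.05), MHC class I and the immunoproteasome (0.08), endothelium (-0.03), theca and interstitial cells (-0.02), luteal cells (-0.04), apoptosis (-0.04), the unfolded protein response (-0.03), oxidative stress (-0.06), immediate early genes (-0.04) and mitochondrially encoded mRNAs (-0.02) lay within 0.1 of the median of all genes with all 15 libraries. Theca and interstitial cells were at 0.16 without the 3 Ovgp1-rich libraries and at 0.17 with the oviduct covariate. With that covariate luteal cells were at 0.22 and extracellular matrix genes at -0.18. The rest of these lists stayed within 0.1 of the median of all genes in both fits. The LH response and ovulation list had a median of -0.12, the surface epithelium of 0.16, the erythroid list of 0.19 and neutrophils and mast cells of 0.51 (7 genes tested). Without the 3 Ovgp1-rich libraries these 4 were at 0.05, -0.13, -0.25 and -0.17, the last over only 3 genes tested. Of the 7 listed pituitary hormones 3 were measured above the minimum mean, with a median of -0.99. They were Lhb, the beta subunit of luteinizing hormone, at 13.3 ± 8.47 and 4.13 ± 2.17 (log2 difference 1.45, limma adjusted p = 0.334), the growth hormone Gh (-1.24, adjusted p = 0.536) and prolactin, Prl (-0.99, adjusted p = 0.621).

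**Figure D5:**
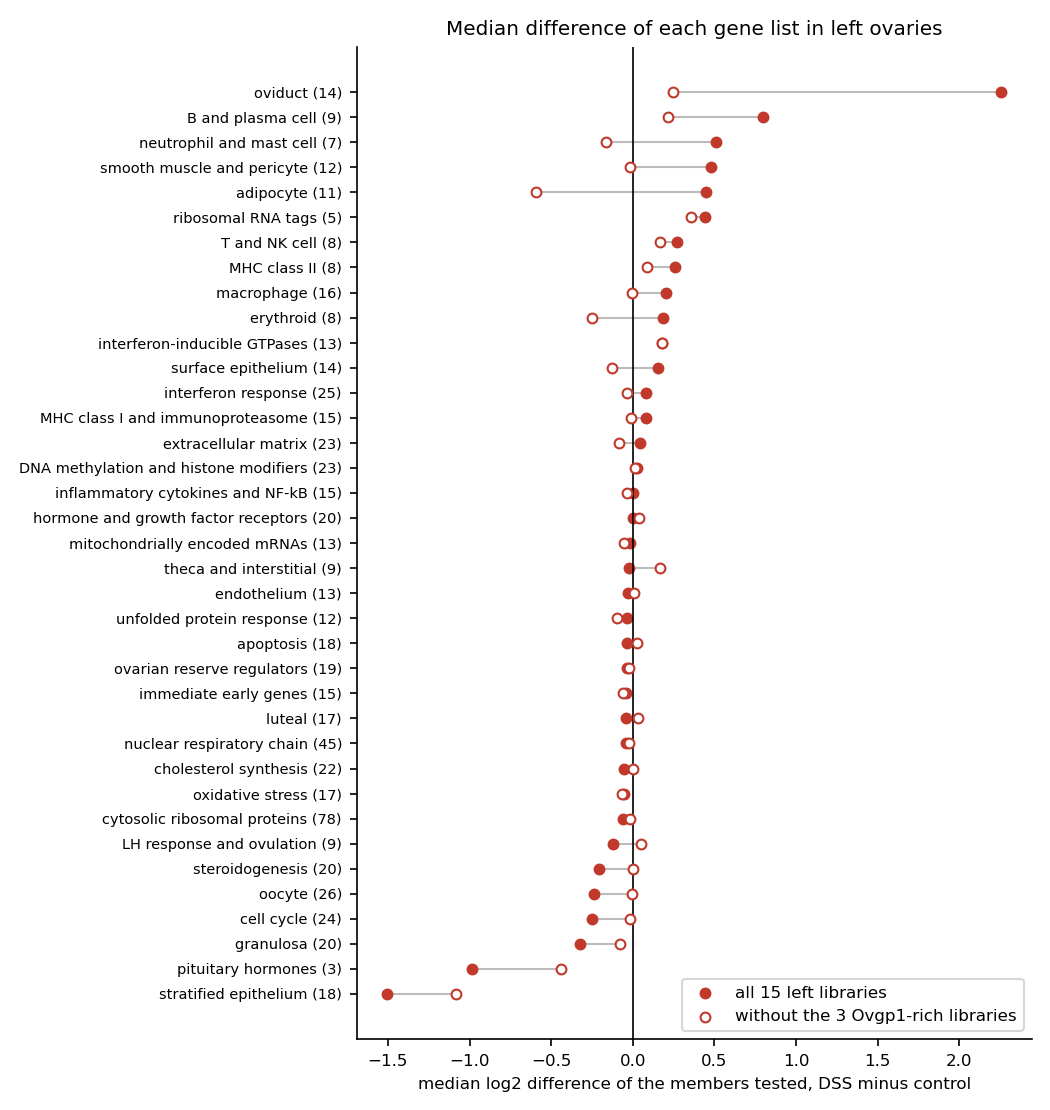
Median log2 difference, DSS minus control, of the members tested of each of 37 gene lists (number tested in brackets) in the 15 left ovaries (filled) and without the 3 Ovgp1-rich libraries (open). The brackets give the number tested with all 15 libraries, and without the 3 the genes tested can differ. The oviduct list was at 2.26 over 14 genes and at 0.25 over the 8 still tested. The granulosa list moved from -0.32 to -0.08 and the oocyte list from -0.24 to 0, and the interferon-inducible GTPases were at 0.18 in both.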

How the data were processed

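CEL-Seq libraries were made from TRIzol-extracted, column-purified total RNA, per the labels' protocols. The submitters' processing notes name TopHat, HTSeq, DESeq2 and the build GRCm38.p5, without their roles. Versions, the strand setting and the handling of molecular identifiers are not given in the sources used here. What the authors deposited is a signal that is never negative, normalized counts with 2 decimals. Within a left library these were whole multiples of one step, and 99.99% to 100% of the values above 0 became whole reads on division by it (tolerance 0.0051). Left libraries held 3095386 to 8564770 reads (median 3953387).

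Genes averaging 5 or more over the 15 left libraries, 14741 in all, were tested with limma 3.58.1 on the log2(normalized count + 1) scale (R 4.3.3, trend, two-sided, Benjamini-Hochberg over all of them, threshold 0.05). The added 1 understates changes of low genes. For the sides, the log2 value of the left ovary minus that of the right was compared between DSS and control mice in 14646 genes, and Srd5a1 also by an exact permutation. The limma scripts were tested on simulated data. The library is the mouse, per the numbers in the labels, and p-values measure the spread between these samples.

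Named were all genes past the threshold up to 12 per direction, otherwise the 8 with the smallest p, the 5 largest differences per direction, 11 preset genes, up to 4 members of each of 37 lists by p, and 3 genes per direction for the sides. Exceptions are marked. Some list members that the rule names are not described. The members, the lists and the tests were chosen with earlier results of these data known. Alternatives were other pseudocounts, filters, scalings, edgeR 4.0.16 and DESeq2 1.42.0 on recovered reads, covariates, a block on the first number of the mouse label, and leaving out each library. The fits without Ovgp1-rich libraries, with Ovgp1 over 5000 or over 1000, were chosen after seeing the data. Shared letters were sought in the longest GENCODE M21 transcript of each gene, as runs of 20 bases held by at least 2 called genes. Coordinates of whole genes are as deposited, and 99.56% of gene identifiers were found in that annotation.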

Additional observations from a re-analysis of the deposited data

Results flagged for a closer look

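In 15 of 78 groups of values examined (38 named genes and the read totals, in the 7 DSS and the 8 control left ovaries) 1 library lay apart from the others of its group by more than Dixon's limit on the log2 scale. Chance alone flags about 1 group in 20. Among DSS left ovaries, DSS_11.2, the library with the most Ovgp1, was lowest for Lhcgr (141.8 normalized counts), Cyp17a1 (109.81), Cyp19a1 (6.4), Foxl2 (63.97) and Cnih2 (47.98). DSS_16.3 was highest for the keratins Krt5 (803.74), Krt6a (252.02) and Krt6b (146.44), and DSS_15.1 lowest for the called transcript Gm37954 (172.39). DSS_13.2 had the most reads of the DSS left libraries, 8564770. Among controls, control_15.3 was lowest for Cyp17a1 (33.15) and Lhcgr (371.33), control_16.9 lowest for S1pr2 (32.79), control_11.4 lowest for Tfam (57.5) and control_10.5 highest for Spag17 (9.01). No gene's DSS effect differed between the left and the right ovary past the threshold.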

How the results depend on the processing

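Counts of called genes were 10 to 13 with other pseudocounts, filters, TMM factors, quantile scaling and edgeR, 14 with the adipocyte and 9 with the read-total covariate. DESeq2 called 233 (213 higher, 20 lower). Without the 3 Ovgp1-rich libraries, without the 4 over 1000 counts of Ovgp1, and with the oviduct covariate limma called 0, and 612, 510 and 758 genes had an unadjusted p under 0.05. With the stratified epithelium covariate 6 were called, 3 of them among the 11 (the others were Gm37900, Olfr1336 and Slc17a5). Without any filter, 1 of the 11 calls was a lower gene, Treml4. Leaving out 1 library gave 6 to 21 calls. The 21 came without DSS_15.1 and include all 11. Without DSS_10.4, DSS_13.2 or DSS_16.3 or control_11.4 or control_16.9 there were 6, and without control_10.6 or control_15.4 there were 7. For the difference between sides the count was 0 throughout, also on leaving out each mouse (0 to 0), except 1, Gm43028, with the oviduct covariate and without the 6 mice with an Ovgp1-rich ovary. With the first number of the mouse label as a replicate block 5 genes were called, RP23-167J19.2, 9930111J21Rik2, Vmn2r55, A430073D23Rik and Gm38195. DSS and control libraries of the same first number had correlations of deviations between -0.05 and 0.17 in 11 pairs, 2 of them over 0.1. Those of different first numbers ran from -0.19 to 0.22 in 45 pairs, 5 of them over 0.1. Correlations over all genes cannot exclude that the number marks a litter or cage, and no label says that it marks a batch.

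All 11 called transcripts were higher under each of 30 alternatives. Srd5a1 was lower in all 30, from -0.51 to -0.28 (leaving out 1 library: -0.51 to -0.42), and DESeq2 called it (-0.47, adjusted p = 0.0154, range over alternatives 0.0154 to 0.999). The direction turned for these uncalled genes. With the oviduct covariate the difference was 0.071 for Amh, 0.042 for Fshr, 0.90 for Lhcgr, 0.16 for Star, -1.66 for Adipoq, -0.055 for Gbp8, -0.11 for H2-Ob, -0.07 for Igha, -0.30 for Igkc, -0.038 for Myh11, -0.13 for Tagln and -0.62 for Lpl. Without the 3 Ovgp1-rich libraries it was 0.44 for Lhcgr, -0.59 for Adipoq and -0.14 for Lpl, and without 4 it was 0.083 for Amh, 0.033 for Fshr, 0.39 for Lhcgr, -0.82 for Adipoq, -0.006 for Rtp4 and -0.21 for Lpl. For Lhcgr it was 0.14 with edgeR and with DESeq2, 0.034 with the stratified epithelium covariate, 0.075 with the adipocyte covariate, 0.051 with the replicate block and -0.33 to 0.52 on leaving out 1 library. For Cyp17a1 it was -0.035 with edgeR, -0.034 with DESeq2, -0.22 with the read-total covariate and -0.52 to 0.60 on leaving out 1 library. For Adipoq it was -0.19 with the adipocyte covariate and -0.008 to 1.04 on leaving out 1 library, and for Star -0.29 to 0.12. Why these values moved was not tested. Depth limits genes under a mean of 5 normalized counts, which were not tested.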
